A study of Mus musculus with 12 samples.

Results

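Promoter accessibility of 9 genes of hepatic fat uptake and storage was compared between livers of mice given PCN, atorvastatin or vehicle. The genes were Cd36, Vldlr, Lpl, Pparg, Mogat1, Dgat2, Plin2, Cidec and Cidea. They were picked by name, as genes tied to fatty liver under activation of the pregnane X receptor (PXR), with earlier results of these data known. For each symbol the promoter of highest mean level over the 12 libraries was taken. The 9 symbols, of 25124 in the table, held 19 of its 43511 promoter rows, and all 19 passed the filter on low counts. These 19 rows hold 16 distinct sets of counts, because 2 pairs of Cd36 rows and 1 pair of Vldlr rows have the same counts.

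Open chromatin was measured by ATAC-seq, in which a transposase cuts accessible DNA, on nuclei from frozen liver. All mice were male wild-type C57BL/6N animals on standard chow, 19 to 20 weeks old, gavaged for 4 days and then fasted for 12 h overnight. The PCN group received 100 mg/kg of pregnenolone 16α-carbonitrile (PCN), an agonist of mouse PXR, and the atorvastatin group 10 mg/kg of atorvastatin, an inhibitor of HMG-CoA reductase. The control group received distilled water, and each group held 4 libraries.

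Cd36 is a fatty acid transporter, Vldlr binds triglyceride-rich lipoproteins, and Lpl releases fatty acids from them. Pparg is the nuclear receptor that drives fat storage in adipocytes, and its expression in hepatocytes is known to accompany fatty liver. Mogat1 and Dgat2 build triglyceride, and Plin2, Cidec and Cidea coat or enlarge the lipid droplets that hold it. PXR is a ligand-activated nuclear receptor that binds DNA as a dimer with RXR, and its activation is known to increase liver fat in rodents.

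Total counts in the promoter table ran over libraries from 1679054 in control 4 to 15336000.5 in atorvastatin 2. Levels are given as CPM, each count scaled to the total of the tested counts and by TMM. Atorvastatin 3 and control 3 stood apart. Their median correlation with the other libraries over promoters was 0.685 and 0.586, against 0.898 to 0.952 for the other 10. Values are given with all 12 libraries, and those of the 9 chosen promoters that moved by over 1.5 times also without these 2. Hepatocyte marker promoters summed to 212 to 315 CPM in PCN, 166 to 340 CPM in atorvastatin and 159 to 266 CPM in control libraries, and none of the 6 was at 0. In bulk liver, fewer cells with an open promoter and less accessibility per cell cannot be told apart.

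The 4 windows that follow are printed because they bear on 2 of the genes with separate promoter rows (Cd36, Pparg) and on the droplet coat gene with the highest level (Plin2). Promoter rows carry no coordinates, so the windows were not tied to rows by position. They are RefSeq windows of build GRCm38.p6, which has the coordinates of mm10, each 300 bases from 250 before to 50 after a start. Cd36 lies at chr5:17835847-17836146 and Plin2 at chr4:86670010-86670309, both on the minus strand. The Pparg windows are at chr6:115360894-115361193 and chr6:115421816-115422115 on the plus strand. The downstream one is the start from which the Pparg2 isoform is known to be transcribed. Capitals mark matches to the motifs searched.
Cd36: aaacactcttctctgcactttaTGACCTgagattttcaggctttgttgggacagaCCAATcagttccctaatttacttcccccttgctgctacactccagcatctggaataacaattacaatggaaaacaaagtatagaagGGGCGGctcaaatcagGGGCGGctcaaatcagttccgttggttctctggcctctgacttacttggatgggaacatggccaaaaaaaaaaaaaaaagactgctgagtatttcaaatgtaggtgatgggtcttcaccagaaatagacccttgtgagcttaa
Plin2: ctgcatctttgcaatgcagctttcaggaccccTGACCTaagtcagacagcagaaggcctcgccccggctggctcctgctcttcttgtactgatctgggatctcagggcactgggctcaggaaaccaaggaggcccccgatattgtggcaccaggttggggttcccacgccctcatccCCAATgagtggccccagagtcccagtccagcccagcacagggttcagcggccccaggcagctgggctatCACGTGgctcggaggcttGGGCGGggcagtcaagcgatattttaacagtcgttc
Pparg, upstream start: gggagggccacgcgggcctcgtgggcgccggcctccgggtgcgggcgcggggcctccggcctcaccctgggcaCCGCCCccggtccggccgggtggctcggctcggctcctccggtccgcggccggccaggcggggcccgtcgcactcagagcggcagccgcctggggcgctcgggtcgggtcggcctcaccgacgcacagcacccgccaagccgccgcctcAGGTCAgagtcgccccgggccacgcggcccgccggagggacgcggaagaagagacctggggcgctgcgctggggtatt
Pparg, downstream start: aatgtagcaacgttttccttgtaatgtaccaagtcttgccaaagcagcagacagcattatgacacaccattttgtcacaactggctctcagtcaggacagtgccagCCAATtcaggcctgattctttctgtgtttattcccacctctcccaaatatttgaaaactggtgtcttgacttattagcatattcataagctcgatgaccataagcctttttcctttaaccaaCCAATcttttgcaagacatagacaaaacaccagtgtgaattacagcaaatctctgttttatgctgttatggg

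The Pparg windows differed most in base composition. The upstream window had 80.3% G and C with 44 CpG sites, and the downstream window had 40.3% with 2 CpG sites. Over all 32851 RefSeq windows the medians were 52.7% and 7 sites. Cd36 had 43% with 3 CpG sites and Plin2 60.7% with 10. RefSeq windows were found for 6 of the 9 genes, with 10 starts. Dgat2, Lpl and Cidea are named only.

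Motifs were searched on both strands of the 10 windows. The nuclear receptor half-site AGGTCA was present in 4 of them, against 16.3% of all windows. It lay 218 bases before the Plin2 start, 228 before the Cd36 start, 28 before the upstream Pparg start and 9 before another Pparg start between those printed. The paired half-sites AGGTCANAGGTCA (DR1), AGGTCANNNAGGTCA (DR3) and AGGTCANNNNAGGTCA (DR4), known as elements of PPAR and PXR dimers with RXR, were in none of the 10. They were in 0.0396%, 0.00609% and 0.0152% of all windows. CCAAT was in 6 of 10 (37.4% of all), GGGCGG in 5 (35.7%), and CACGTG in 1, that of Plin2 (7.15%). TATAAA (13.6% of all) and TGACTCA (5.2%) were each in 1 of 10. These are letter matches in a window, and say nothing of binding.

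Across the table, no promoter passed edgeR's quasi-likelihood test at an adjusted p under 0.05 in any of the 3 comparisons, 0% of 41908 promoters tested. None of the 9 genes passed either. At an unadjusted p under 0.05, 3.75%, 1.93% and 0.73% of all promoters lay in PCN against control, atorvastatin against control and PCN against atorvastatin, and none of the 9 genes did. No gene had groups that did not overlap. Over all promoters such rows made up 2.07% higher and 1.52% lower for PCN against control, 0.525% and 0.444% for atorvastatin against control, and 0.296% and 0.21% for PCN against atorvastatin. The comparisons share libraries, the first 2 their controls, so their values stand side by side and are not independent.

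By log2 fold change, 5 of 9 genes lay above 0 in PCN against control, where 51% of all promoters did. The count was 5 of 9 against 57.3% for atorvastatin against control and 6 of 9 against 47.9% for PCN against atorvastatin. The median over the 9 genes was 0.07, 0.00 and 0.12 in these comparisons, beside 0.01, 0.05 and -0.02 over all promoters. The 95% intervals for PCN against control ran from -0.08 to 0.91 for Dgat2, the narrowest, and from -1.64 to 0.51 for Cidea, the widest. These intervals are per gene and not adjusted, and differences within them are not excluded by these libraries.

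**Figure D1:**
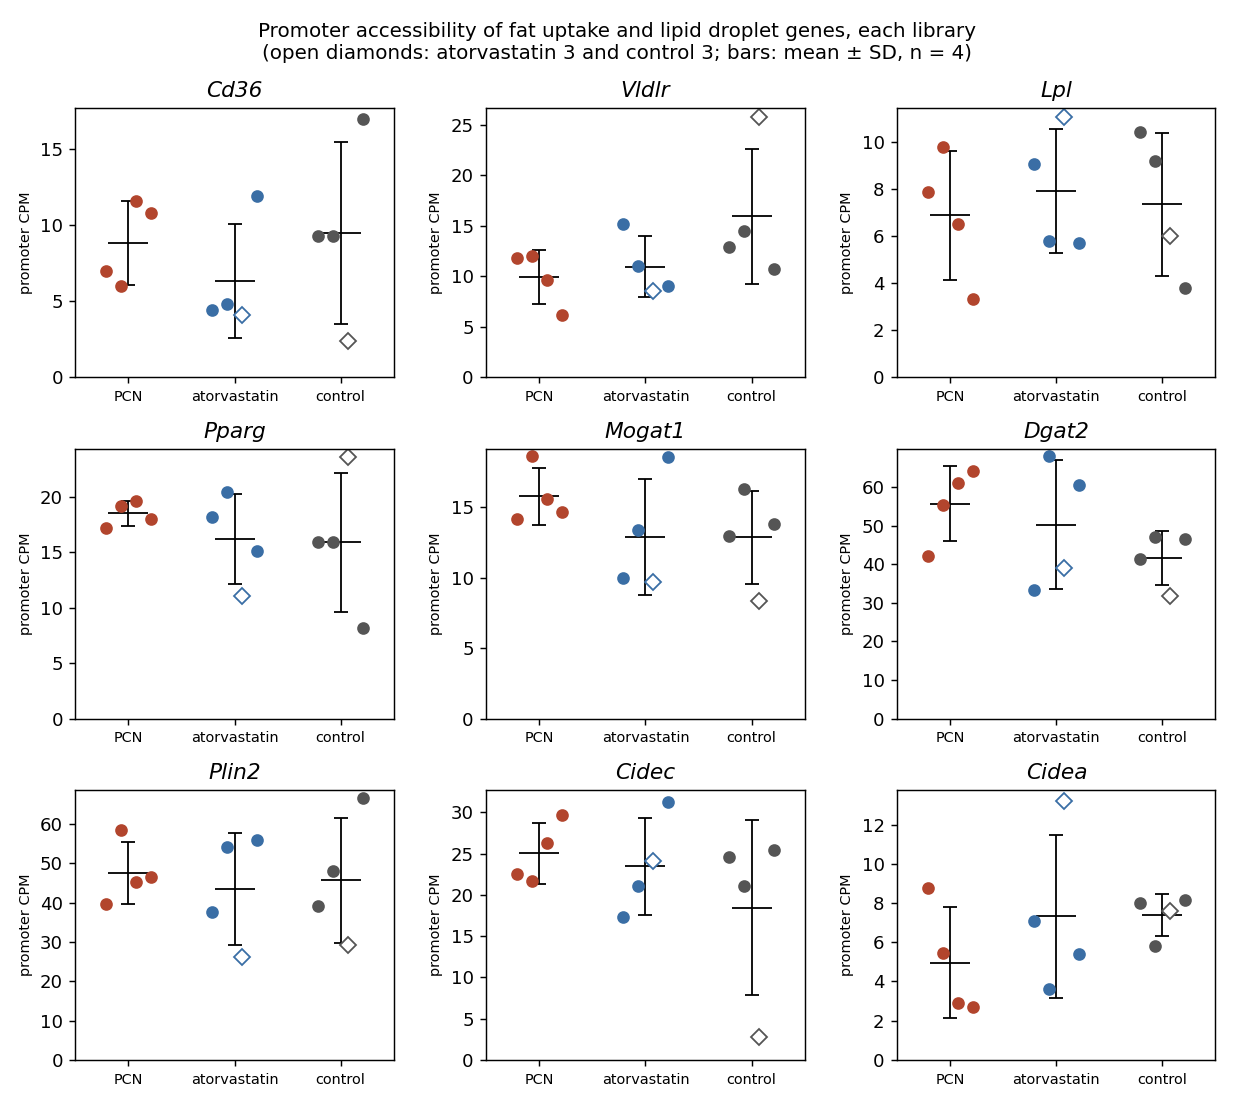
Promoter CPM (y axis, linear from 0) of each of the 9 genes in the 4 PCN, 4 atorvastatin and 4 control libraries. Points are libraries, bars the mean and SD, and open diamonds atorvastatin 3 and control 3. The groups overlap in every panel, and for Vldlr and Cidec control 3 lies farthest from the other controls, at 25.7 and 2.79 CPM.

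Among the genes of uptake, Cd36 varied widely within groups. It had 6.95, 6.00, 11.6 and 10.8 CPM in PCN libraries 1 to 4, 4.42, 4.81, 4.06 and 11.9 CPM in atorvastatin libraries 1 to 4, and 9.27, 9.24, 2.39 and 17.0 CPM in control libraries 1 to 4. All PCN values lay inside the control range, and 3 of 4 atorvastatin values lay below every control but control 3. Means were 8.82 ± 2.75 CPM with PCN, 6.30 ± 3.75 CPM with atorvastatin and 9.47 ± 5.96 CPM in controls (SD, n = 4 each). The log2 fold change was -0.09 ± 0.53 (SE) for PCN against control (edgeR adjusted p = 0.986), -0.56 ± 0.53 for atorvastatin against control (adjusted p = 1) and 0.47 ± 0.53 for PCN against atorvastatin (adjusted p = 1). Without atorvastatin 3 and control 3 these were -0.34 ± 0.36, -0.64 ± 0.38 and 0.30 ± 0.35. Leaving out 1 library moved the atorvastatin value to -1.08 (atorvastatin 4) or to -0.18 (control 4). The sign for PCN against control was not stable to scaling, at 0.22 with loess offsets.

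The other Cd36 rows were lower. The row of NM_007643, with the same counts as NM_001159555, had 6.15, 3.16, 6.51 and 5.38 CPM with PCN, 6.30, 2.20, 6.55 and 5.71 CPM with atorvastatin and 6.63, 4.66, 0 and 5.66 CPM in controls. Outside control 3, where a count of 0 allows up to 1.2 CPM, the highest values were close, at 6.51, 6.55 and 6.63 CPM. The lowest were 3.16 CPM with PCN, 2.20 CPM with atorvastatin and 4.66 CPM in the remaining controls. The row of NM_001159558 averaged 2.54 ± 1.2 CPM with PCN, 2.09 ± 0.96 CPM with atorvastatin and 1.99 ± 1.5 CPM in controls (SD, n = 4 each). Log2 fold changes for PCN against control were 0.30 ± 0.69 and 0.25 ± 0.79 in these rows, and -0.07 and -0.13 without the 2 libraries.

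Vldlr, the very low density lipoprotein receptor, had 11.8, 12.0, 9.59 and 6.21 CPM with PCN, 15.2, 11.1, 8.58 and 9.01 CPM with atorvastatin and 12.9, 14.4, 25.7 and 10.7 CPM in controls. All 4 PCN and all 4 atorvastatin libraries lay below the control mean, 15.9 ± 6.70 CPM (SD, n = 4), which holds control 3 at 25.7 CPM. In log2 terms the difference was -0.67 ± 0.36 for PCN against control (unadjusted p = 0.071, edgeR adjusted p = 0.918), -0.55 ± 0.35 for atorvastatin against control (adjusted p = 1) and -0.12 ± 0.35 for PCN against atorvastatin (adjusted p = 1). With atorvastatin 3 and control 3 left out, these were -0.37 ± 0.29, -0.17 ± 0.30 and -0.20 ± 0.28.

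A second Vldlr row, of NM_001347441, gave wider differences. It had 9.22, 8.42, 7.91 and 5.38 CPM with PCN, 11.4, 8.31, 6.21 and 6.77 CPM with atorvastatin and 11.3, 13.2, 25.5 and 8.17 CPM in controls. Control 4 lay within the PCN range, and the other 3 controls lay above it. Its log2 fold change was -0.91 ± 0.41 for PCN against control (unadjusted p = 0.0388, edgeR adjusted p = 0.918) and -0.83 ± 0.41 for atorvastatin against control (adjusted p = 1). Without the 2 libraries these were -0.52 ± 0.34 and -0.36 ± 0.36.

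Lpl, lipoprotein lipase, had 7.86, 9.79, 6.51 and 3.31 CPM with PCN, 9.07, 5.78, 11.1 and 5.71 CPM with atorvastatin and 10.4, 9.16, 5.98 and 3.77 CPM in controls. The 3 groups covered much the same range. On the log2 scale the change was -0.14 ± 0.50 for PCN against control (edgeR adjusted p = 0.972), 0.06 ± 0.49 for atorvastatin against control and -0.20 ± 0.49 for PCN against atorvastatin (adjusted p = 1 for both). Leaving out atorvastatin 3 and control 3, they were -0.27, -0.30 and 0.03, and with loess offsets the first was 0.21.

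**Figure D2:**
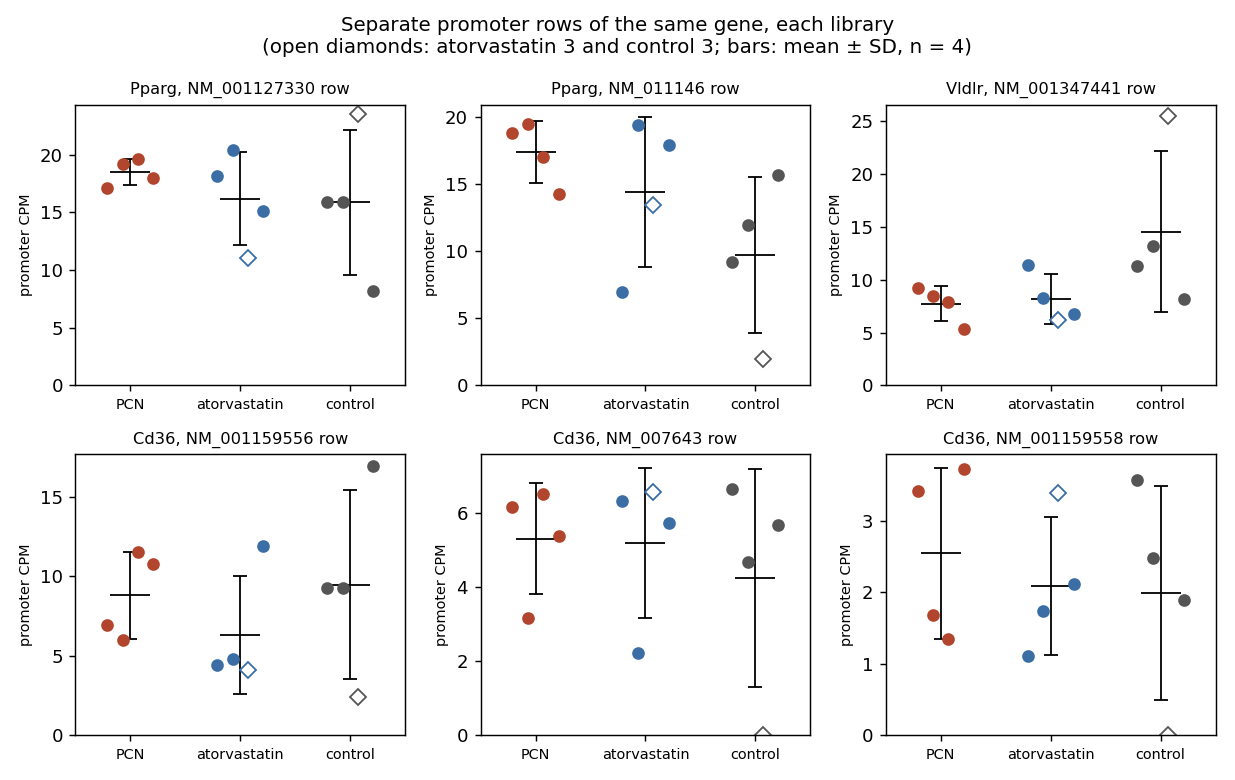
Promoter CPM (y axis, linear from 0) in rows of the same gene named by RefSeq transcript, by group. Points are libraries, bars the mean and SD, and open diamonds atorvastatin 3 and control 3. Among the controls, control 3 is highest in the NM_001127330 row of Pparg at 23.5 CPM and lowest in the NM_011146 row at 1.99 CPM.

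Pparg had 17.1, 19.2, 19.6 and 18.0 CPM with PCN, 18.1, 20.4, 11.1 and 15.1 CPM with atorvastatin and 15.9, 15.9, 23.5 and 8.17 CPM in controls, in the row of NM_001127330. The PCN libraries lay close together, at 18.5 ± 1.13 CPM, inside a wider spread of 16.2 ± 4.04 CPM with atorvastatin and 15.9 ± 6.27 CPM in controls (SD, n = 4 each). The log2 fold change was 0.20 ± 0.28 for PCN against control (edgeR adjusted p = 0.929), 0.01 ± 0.28 for atorvastatin against control and 0.19 ± 0.27 for PCN against atorvastatin (adjusted p = 1 for both). Without atorvastatin 3 and control 3 these were 0.38 ± 0.21, 0.32 ± 0.22 and 0.06 ± 0.20. The 8.17 CPM of control 4, the library of lowest total, came from 13 counts.

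The row of NM_011146, the RefSeq transcript of Pparg2, had another pattern. It had 18.8, 19.5, 17.1 and 14.3 CPM with PCN, 6.97, 19.4, 13.4 and 17.9 CPM with atorvastatin and 9.19, 12.0, 1.99 and 15.7 CPM in controls. PCN 1 to 3 lay above every control and PCN 4 lay below control 4. Means were 17.4 ± 2.32 CPM with PCN, 14.4 ± 5.58 CPM with atorvastatin and 9.71 ± 5.80 CPM in controls (SD, n = 4 each). In log2 terms the difference was 0.86 ± 0.39 for PCN against control (unadjusted p = 0.038, edgeR adjusted p = 0.918), 0.61 ± 0.39 for atorvastatin against control and 0.25 ± 0.37 for PCN against atorvastatin (adjusted p = 1 for both). Without the 2 libraries the first was 0.61 ± 0.24 (unadjusted p = 0.0126, adjusted p = 0.905). Of the 19 rows of the 9 genes, this one and Vldlr NM_001347441 were the 2 with an unadjusted p under 0.05 in PCN against control, where 3.75% of all promoters had one. The 2 remaining Pparg rows were near the first, with log2 fold changes of 0.21 ± 0.28 and 0.28 ± 0.31 for PCN against control.

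Mogat1 and Dgat2, the enzymes of triglyceride synthesis among the chosen genes, had their highest group means with PCN. Mogat1, which acylates monoacylglycerol, had 14.2, 18.6, 15.6 and 14.7 CPM with PCN, 9.96, 13.4, 9.71 and 18.5 CPM with atorvastatin and 13.0, 16.3, 8.37 and 13.8 CPM in controls. All PCN libraries lay above the control mean of 12.9 ± 3.31 CPM (SD, n = 4), but control 2 lay above 3 of them. Its log2 fold change was 0.28 ± 0.30 for PCN against control (edgeR adjusted p = 0.92), 0.00 ± 0.30 for atorvastatin against control and 0.27 ± 0.29 for PCN against atorvastatin (adjusted p = 1 for both). With atorvastatin 3 and control 3 left out, these were 0.13 ± 0.23, -0.01 ± 0.24 and 0.14 ± 0.22.

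Dgat2, which adds the last acyl chain to triglyceride, had 42.1, 55.5, 61.1 and 64.1 CPM with PCN, 33.4, 68.1, 39.2 and 60.6 CPM with atorvastatin and 41.4, 47.0, 31.9 and 46.5 CPM in controls. PCN 2 to 4 lay above every control, and PCN 1 lay above 2 of them. Means were 55.7 ± 9.78 CPM with PCN, 50.3 ± 16.7 CPM with atorvastatin and 41.7 ± 7.00 CPM in controls (SD, n = 4 each). On the log2 scale the change was 0.42 ± 0.25 for PCN against control (unadjusted p = 0.111, edgeR adjusted p = 0.918), 0.28 ± 0.25 for atorvastatin against control and 0.14 ± 0.25 for PCN against atorvastatin (adjusted p = 1 for both). Leaving out atorvastatin 3 and control 3, these were 0.32 ± 0.23, 0.29 ± 0.24 and 0.04 ± 0.22.

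Among the droplet proteins, Plin2, a coat protein of hepatocyte droplets, had 39.7, 58.5, 45.2 and 46.7 CPM with PCN, 37.7, 54.1, 26.2 and 55.9 CPM with atorvastatin and 39.3, 48.0, 29.1 and 66.6 CPM in controls. The PCN values lay inside the control range. The log2 fold change was 0.07 ± 0.27 for PCN against control (edgeR adjusted p = 0.973), -0.05 ± 0.27 for atorvastatin against control and 0.12 ± 0.26 for PCN against atorvastatin (adjusted p = 1 for both). The first was -0.03 with library totals, -0.11 with loess offsets and -0.07 ± 0.22 without atorvastatin 3 and control 3, so it had no settled sign. Without the 2 libraries the others were -0.01 ± 0.23 and -0.06 ± 0.21.

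Cidec, which joins droplets into larger ones, had 22.5, 21.7, 26.3 and 29.7 CPM with PCN, 17.3, 21.1, 24.2 and 31.3 CPM with atorvastatin and 24.6, 21, 2.79 and 25.5 CPM in controls. Control 3 lay far below the other 11 libraries. In log2 terms the difference was 0.42 ± 0.34 for PCN against control (edgeR adjusted p = 0.918), 0.33 ± 0.34 for atorvastatin against control and 0.09 ± 0.33 for PCN against atorvastatin (adjusted p = 1 for both). Without atorvastatin 3 and control 3 the first 2 were 0.10 ± 0.18 and 0.02 ± 0.19.

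Cidea, known for its role in droplets of brown fat, had the lowest mean level of the 9. It had 8.77, 5.48, 2.92 and 2.69 CPM with PCN, 7.08, 3.61, 13.2 and 5.38 CPM with atorvastatin and 8.00, 5.82, 7.58 and 8.17 CPM in controls. PCN 2 to 4 lay below every control and PCN 1 above every control. Its log2 fold change was -0.56 ± 0.55 for PCN against control (edgeR adjusted p = 0.918), -0.02 ± 0.54 for atorvastatin against control and -0.55 ± 0.54 for PCN against atorvastatin (adjusted p = 1 for both). With atorvastatin 3 and control 3 left out, they were -0.53 ± 0.47, -0.47 ± 0.50 and -0.07 ± 0.47. The high atorvastatin value is that of atorvastatin 3.

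**Figure D3:**
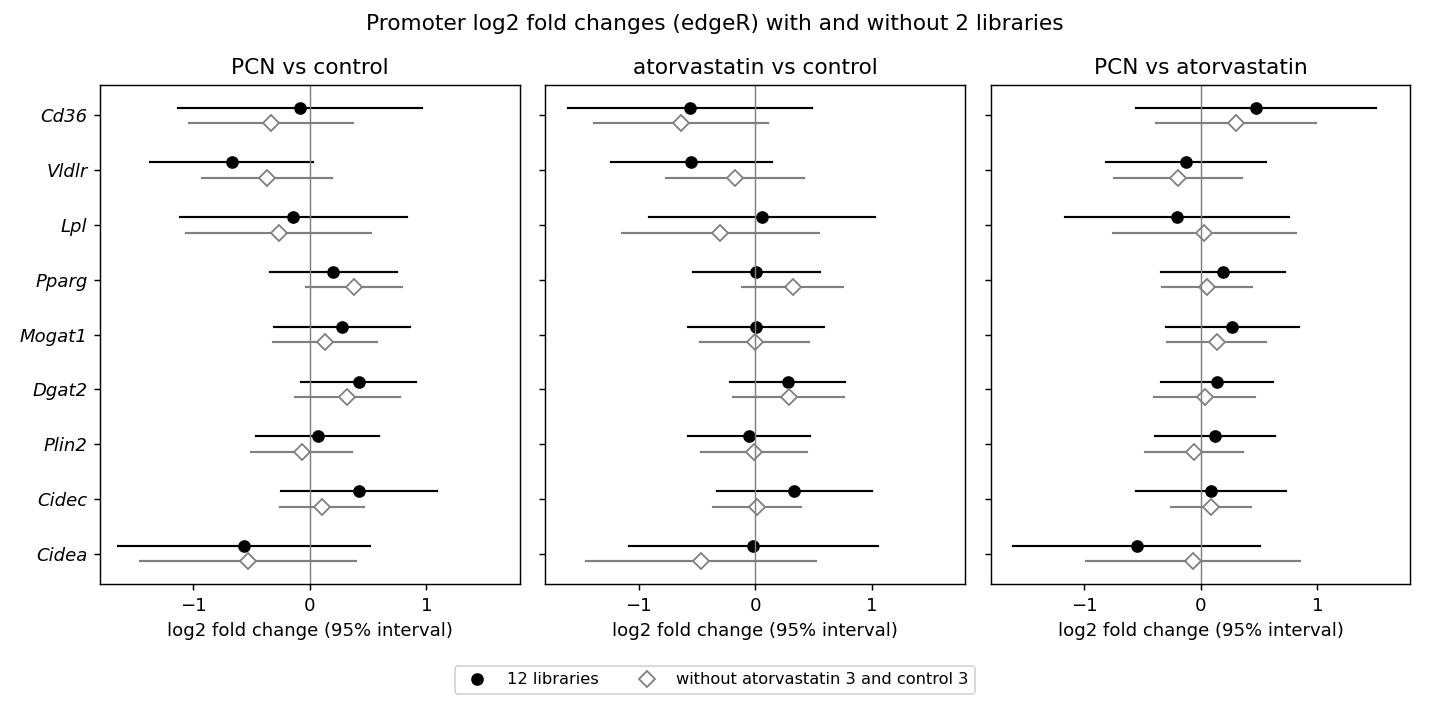
Promoter log2 fold change (x axis) of each gene in the 3 comparisons, with 95% intervals, from all 12 libraries (filled circles) and without atorvastatin 3 and control 3 (open diamonds). Every interval includes 0, and the 2 fits stand farthest apart for Cidea in the comparisons that use atorvastatin, at -0.02 and -0.47 against control.

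Mean levels over the 12 libraries ran from 49.2 CPM for Dgat2 and 45.6 CPM for Plin2 to 7.37 CPM for Lpl and 6.56 CPM for Cidea. Cidec had 22.3, Pparg 16.8, Mogat1 13.8, Vldlr 12.3 and Cd36 8.19 CPM. Dgat2 and Plin2 lay at the 87th and 84.5th percentile of tested promoters, and Cidea at the 25.9th. Window lengths are not given in the sources used here, so these levels are per promoter row and not per length. Plin2 exceeded Cidec, next in this order, in all 12 libraries. Between the other neighbours the gene of higher mean led in 5 libraries (Cd36 over Lpl) to 10 (Cidec over Pparg, and Mogat1 over Vldlr), so their order did not hold in each library.

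Genes of the same pathways were read from lists of related genes. Over all promoters 51%, 57.3% and 47.9% lay above 0 in the 3 comparisons, and this holds as background for each list. The lists were not recounted without atorvastatin 3 and control 3. Of 17 genes of fat uptake and lipoprotein handling, 14 lay above 0 for PCN against control (median log2 fold change 0.33), 15 for atorvastatin against control (0.17) and 9 for PCN against atorvastatin (0.01). None passed the test. The smallest unadjusted p belonged to Slc27a5, a hepatic acyl-CoA synthetase, for PCN against control (0.57 ± 0.25). It belonged to Angptl8, an inhibitor of Lpl, for atorvastatin against control (0.55 ± 0.25), and to Gpihbp1, which holds Lpl on capillaries, for PCN against atorvastatin (-0.41 ± 0.34). Leaving out atorvastatin 3 and control 3, these were 0.44 ± 0.19, 0.35 ± 0.23 and 0.09 ± 0.27.

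Of 11 genes of triglyceride synthesis, 7, 7 and 6 lay above 0 in the same order of comparisons (medians 0.14, 0.12 and 0.02), and none passed. Agpat2, which makes phosphatidic acid, had the smallest p with PCN (0.60 ± 0.35) and with atorvastatin (0.72 ± 0.35) against control. Lpin2, a phosphatidate phosphatase, had it for PCN against atorvastatin (0.25 ± 0.25). Agpat2 had 9.17 CPM in control 3 and 38.7 to 66.0 CPM in the other controls, and without atorvastatin 3 and control 3 its values were 0.29 ± 0.25 and 0.48 ± 0.26 (0.28 and 0.40 without control 3 alone). Lpin2 had 16.8 CPM in atorvastatin 3 and was at 0.01 ± 0.20 without the 2 libraries (0.02 without atorvastatin 3 alone). Of 12 droplet proteins, 11, 8 and 8 lay above 0 (medians 0.17, 0.09 and 0.04), and none passed. Fitm1, which helps droplets form, had 0.55 ± 0.27 with PCN and 0.57 ± 0.26 with atorvastatin against control, and the coat protein Plin3 had 0.34 ± 0.23 for PCN against atorvastatin, and 0.19 ± 0.20 without the 2 libraries (0.19 without atorvastatin 3 alone).

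All 10 genes of lipolysis and export lay above 0 for PCN against control and for atorvastatin against control, and 8 for PCN against atorvastatin (medians 0.29, 0.15 and 0.08). Over all promoters 51%, 57.3% and 47.9% did. Control 3 was the lowest control for Pnpla2, Abhd5, Mgll, Ces1d and Mttp, but not for the other genes of this list. Its part in these counts was not tested. None of the 10 passed the test. Ces1d, a carboxylesterase that hydrolyses stored triglyceride, had 0.78 ± 0.31 with PCN against control (unadjusted p = 0.0184, edgeR adjusted p = 0.918) and 0.47 ± 0.31 with atorvastatin against control. Its PCN value passed under 1 setting, without atorvastatin 3 and control 3 and with the replicate number as a block, at 0.64 (edgeR adjusted p = 0.026). Pnpla2, the main triglyceride lipase, had 0.32 ± 0.29 for PCN against atorvastatin, and 0.18 ± 0.26 without the 2 libraries. Of 10 nuclear receptors and cofactors, 8, 8 and 6 lay above 0 (medians 0.24, 0.21 and 0.16), and none passed. Nr0b2, a repressor of bile acid synthesis, had 0.58 ± 0.26 with PCN against control. Nr1i2, which encodes PXR, had -0.53 ± 0.29 with atorvastatin against control, and 0.03 ± 0.20 without the 2 libraries. The coactivator Ppargc1a had 0.48 ± 0.34 for PCN against atorvastatin, and 0.32 ± 0.18 without them.

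Marker sums of other liver cells overlapped between the groups. Of 6 hepatocyte markers, 5 lay above 0 in each comparison, while 0 of 5 endothelial and 0 of 6 stellate markers did for PCN against control and for PCN against atorvastatin, and 3 of each for atorvastatin against control. Stellate markers summed to 32.4 to 56.1 CPM in PCN, 37.2 to 78.1 CPM in atorvastatin and 45.9 to 87.3 CPM in control libraries. Endothelial markers summed to 31.3 to 50.3, 38.9 to 77.6 and 32.0 to 66.4 CPM in the same groups. Kupffer cell markers summed to 26.7 to 44.0, 21.8 to 66.1 and 23.3 to 84.9 CPM, with 1 of 6 above 0 in each comparison. The highest stellate and Kupffer sums of the atorvastatin and control groups were those of atorvastatin 3 and control 3, and the highest endothelial sum was that of atorvastatin 3. Adipocyte markers, of a cell type that uses the same droplet genes, summed to 58.8 to 69.7, 46.3 to 93.9 and 60.0 to 75.1 CPM, with 2 of 6 above 0 in each comparison. Plin1, Vsig4 and Dcn were at 0 in control 3 and in no other library. The part of cell makeup in the values of the 9 genes was not tested.

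The second table holds regions called enhancers, and 355 of its 406518 were assigned to the 9 genes by nearest gene body within 50 kb. Many overlap, so that they form 126 loci, and 218 regions in 40 loci passed the filter. Totals of this table were lowest in control 4, at 1256648.5, and control 3, at 1530063.5. The median correlation with the other libraries over regions was 0.035 for control 3 and 0.181 for atorvastatin 3. It was 0.395 for control 4 and up to 0.617 in the rest. The tested regions were spread unevenly over the genes. Dgat2 had 69 of them, Pparg 37, Mogat1 36, Cd36 22, Cidec 22, Plin2 16, Lpl 9, Vldlr 7 and Cidea none of 8. None passed edgeR's test in any comparison, nor did any of the 182115 tested regions (0%). For PCN against control 148 of 218 lay above 0 (67.9%, against 62% of all regions), with a median of 0.20. For atorvastatin against control 134 did (61.5%, against 58.4%), and for PCN against atorvastatin 137 (62.8%, against 55.4%), with medians of 0.14 and 0.08. Without atorvastatin 3 and control 3 the shares were 53.1% and 54% for the first 2. Of all 192874 regions tested in that fit, 98959 and 98200 lay above 0.

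**Figure D4:**
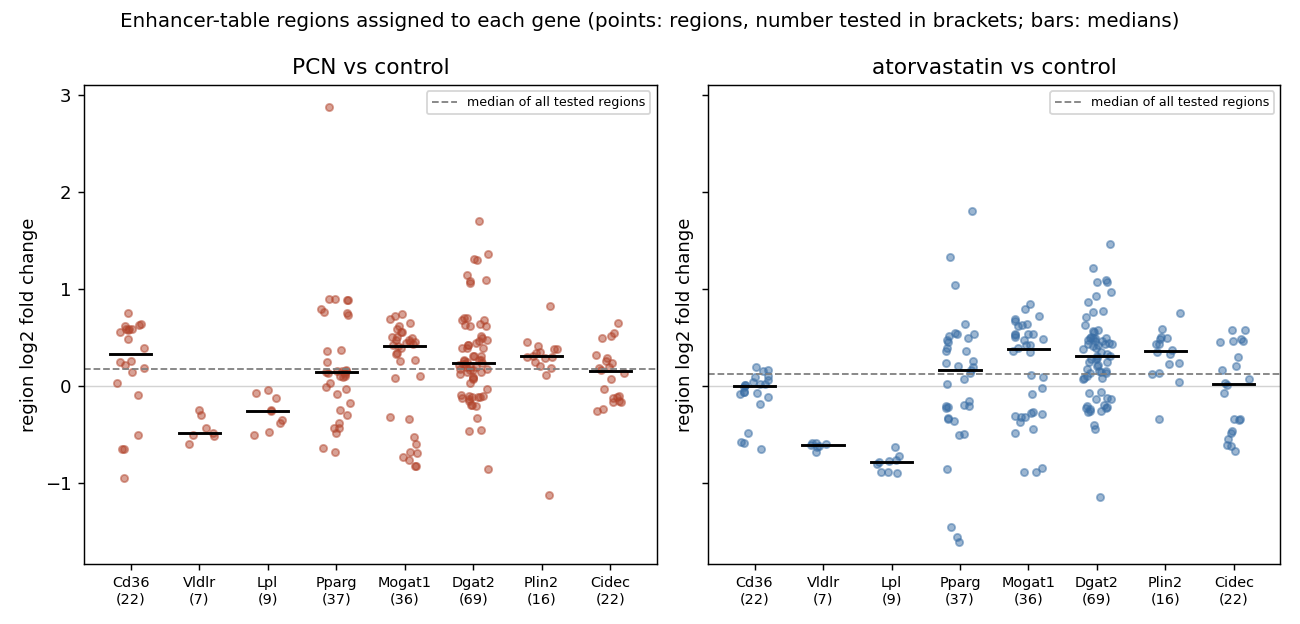
Log2 fold change (y axis) of each tested region assigned to a gene, for PCN and for atorvastatin against control. Points are regions, which overlap and are not independent, bars the median of each gene, and the dashed line the median of all tested regions. The regions of Vldlr and Lpl lie below 0 in both panels, each from 1 locus, and 1 Pparg region stands at 2.88 with PCN.

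The regions were read gene by gene, overlapping ones of a locus sharing reads. All 9 tested Lpl regions lay at chr8:68954139-68954331, 47207 to 47288 bases from the gene, with a median log2 fold change of -0.26 for PCN and -0.78 for atorvastatin against control. All 7 of Vldlr lay at chr19:27176655-27176814, 39666 to 39714 bases from the gene, with medians of -0.49 and -0.61. Plin2 had 15 of 16 above 0 in both comparisons (medians 0.30 and 0.36), and Dgat2 52 of 69 in both (0.24 and 0.31). Mogat1 had 26 and 22 of 36 above 0, and Cidec 13 and 12 of 22. Cd36 had 17 of 22 above 0 with PCN and 11 with atorvastatin, and Pparg 25 and 22 of 37.

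Regions whose groups did not overlap were 5 higher and 1 lower for PCN against control, where 3.66% and 0.849% of all tested regions were. Of the 5, 4 were of Dgat2 and 1 of Pparg, and the lower one was of Plin2. There were 7 higher, 3 of Dgat2 and 4 of Mogat1, and none lower for atorvastatin against control (2.1% and 0.672% of all) and 3 higher and none lower for PCN against atorvastatin (1.43% and 0.89%). At an unadjusted p under 0.05 there were 4 for PCN against control, where 1.93% of all regions were, and none in the other comparisons (2.39% and 0.465% of all).

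The smallest p for PCN against control was that of chr6:115424600-115424718 in Pparg, 2593 bases past the downstream start printed above. It had 1.8, 4.13, 3.09 and 5.91 CPM with PCN, 2.72, 1.66, 0 and 2.16 CPM with atorvastatin and 0.773, 0.651, 0 and 0.475 CPM in controls. The PCN values, from 8.5 to 16.5 counts each, lay above every control, the controls having 3 counts or fewer. Low counts were common in part of the controls. Over all regions 68.57% were at 0 in control 3 and 37.99% in control 4. The share was 0.69% in control 1, 6.78% in control 2 and 2.66% to 18.95% in PCN libraries. On the log2 scale the change of the Pparg region was 2.88 ± 1.08 (unadjusted p = 0.0143, edgeR adjusted p = 1), and 2.51 ± 0.77 without atorvastatin 3 and control 3 (adjusted p = 0.439). Its width is that of a class of regions whose mean was highest in PCN 4. Each of the 12 such classes peaks in a different library, and their part in these values was not tested.

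The other 3 regions with an unadjusted p under 0.05 overlap at chr7:99191611-99191753, outside the gene body of Dgat2. The one of smallest p, 8920 bases from the gene, had 4.66, 4.98, 7.31 and 6.45 CPM with PCN, 3.96, 4.62, 7.62 and 3.90 CPM with atorvastatin and 1.68, 4.56, 0 and 0.475 CPM in controls. PCN lay above every control, and atorvastatin overlapped control 2. The log2 fold change was 1.70 ± 0.74 for PCN (unadjusted p = 0.0326) and 1.47 ± 0.74 for atorvastatin against control (edgeR adjusted p = 1 for both), and 1.30 ± 0.47 and 0.81 ± 0.50 without the 2 libraries. Another, chr7:99162229-99162411 in Dgat2, had 1.07 ± 0.56 for atorvastatin against control, and 0.37 ± 0.32 without them. It had 21.7 CPM in atorvastatin 3 and 0 in control 3. Its width is that of the class whose mean was highest in atorvastatin 3. The region 8920 bases from the gene has the width of the class highest in atorvastatin 2. The part of these classes was not tested. Overlapping Pparg regions at chr6:115419187-115419315 and chr6:115419169-115419315 had the smallest p for PCN against atorvastatin, at 1.25 ± 0.83 and 1.2 ± 0.82 (adjusted p = 1 for both). Both were at 0 in atorvastatin 3. Without PCN 1, which had 7.63 and 8.37 CPM, the changes were 0.69 and 0.59. Leaving out atorvastatin 3 and control 3 gave 0.92 ± 0.52 and 0.85 ± 0.50. Their widths are those of the classes highest in PCN 1 and in control 4, whose part was not tested.

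The region of highest mean CPM of each gene had overlapping groups except that of Mogat1. That of Dgat2, chr7:99155368-99155560, averaged 48.4 ± 21.3 CPM with PCN, 44.3 ± 13.4 CPM with atorvastatin and 53.8 ± 23.6 CPM in controls (SD, n = 4 each). Cidec, at chr6:113428110-113428302, averaged 23.2 ± 3.22, 19.6 ± 7.14 and 25.3 ± 9.38 CPM in the same groups. Plin2, at chr4:86690419-86690601, averaged 16.1 ± 2.93, 18.3 ± 8.02 and 12.9 ± 8.68 CPM, with 29.8 CPM in atorvastatin 3 and 0 in control 3. The Mogat1 region at chr1:78537885-78538067 had its 4 atorvastatin values, 9.06 to 13.0 CPM, above every control, the highest of which had 8.55 CPM, with a log2 fold change of 0.72 ± 0.47 (edgeR adjusted p = 1). The Mogat1 and Plin2 regions have the width of the class whose mean was highest in atorvastatin 3. Those of Dgat2 and Cidec have the width of the class highest in control 3, where they had 64.0 and 38.3 CPM. The part of these widths was not tested. The regions of highest mean of Pparg, Lpl, Cd36 and Vldlr had means over 12 libraries of 7.89, 7.80, 3.80 and 3.24 CPM. The untested Cidea region was at 10.2 CPM in atorvastatin 3 and 9.72 CPM in control 3, and at most 1.79 CPM in the others.

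The genes varied together over libraries to differing degrees. Over the 12 libraries Pearson's r of log2 CPM was -0.84 between Cidec and Vldlr, -0.78 between Cidea and Dgat2, 0.80 between Plin2 and Mogat1 and 0.72 between Cd36 and Cidec. With atorvastatin 3 and control 3 left out, it was -0.83, -0.81, 0.56 and 0.76, and for Vldlr with Lpl it was 0.82, against 0.34 over all 12. These are descriptions over libraries that share treatment, depth and scaling.

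The promoters most like each gene over the 12 libraries, among 19283 symbols, were Rabepk and Foxo4 for Cidec (r = 0.98 for both), Mrpl17 and Pgghg for Plin2 (0.96 for both) and Smim27 and Topors for Dgat2 (0.96 for both). They were 1700026J14Rik and 1700010B08Rik for Cidea, and Ccdc155 and Nr5a1 for Lpl (0.96 for each). Pparg had Stxbp5l (0.95) and Lrrc20 (0.94), and Vldlr had Rhbdl3 and 1700003F12Rik (0.95 for both). Mogat1 had Zkscan14 (0.93) and Kmo (0.92), and Cd36 had Mir150 (0.92) and Lrrc14 (0.91). For Cidec 881 symbols had an r above 0.9, and for Cd36 4 did. These values include atorvastatin 3 and control 3 and were not recomputed without them. Cidec had 2.79 CPM in control 3 and 17.3 to 31.3 CPM in the other libraries. The part of control 3 in its r values was not tested.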

How the data were processed

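Values were tables of expected counts per promoter and per enhancer region, in steps of 0.5 and not normalized, deposited by the authors as 1 table each. Per the submitters' processing notes, Trimmomatic, STAR 2.7.9a, bedtools 2.30.0, HOMER 4.10 and build mm10 were used, with no roles given. How promoters and enhancers were defined, and the counting tool, are not given in the sources used here. The labels do not say whether each library is a single mouse, so p-values measure the spread between libraries. A pravastatin group is not analysed here.

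Counts were rounded to whole numbers. Each table was fitted in R 4.3.3 with edgeR 4.0.16 (TMM, filterByExpr with a minimum count of 10 and total of 15, quasi-likelihood F test, group as the only factor, all 12 libraries), with Benjamini-Hochberg adjustment over 41908 promoters or 182115 regions and a threshold of 0.05. SEs were obtained by dividing the size of each log2 fold change by the root of its F, and are approximate, with normal 95% intervals. CPM carry counting error, and intervals for a count of 0 take 3 counts and cover counting error only. Alternatives were other scalings, no filter, DESeq2 1.42.0, voom with sample weights (limma 3.58.1), the replicate number as a block, leaving out libraries, and a distance of 20 kb.

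The genes, lists and the alternative without atorvastatin 3 and control 3 were chosen with earlier results of these data known. Named were the 9 genes, per list and comparison the gene of smallest unadjusted p, per gene the region of highest mean CPM, per comparison the 2 regions of smallest p, and per gene the 2 most alike promoters among symbols with a mean of at least 5 CPM. The other rows of a gene and the overlapping Dgat2 regions were named after their values were seen.

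Same-numbered libraries were checked for pairing by the correlation of their deviations from group means, over rows of mean log2 CPM above 3. For promoters of atorvastatin and control these were 0.253, 0.105, 0.122 and 0.425, all above 0.1. Yet atorvastatin 2 correlated most with control 4, and atorvastatin 3 with control 1, so pairing by number was not shown. For PCN and control (-0.03 to 0.41), PCN and atorvastatin (-0.36 to 0.41) and enhancer regions (-0.05 to 0.17) not all correlations were above 0.1.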

Additional observations from a re-analysis of the deposited data

Results flagged for a closer look

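The Cd36 promoter in the atorvastatin group was marked because atorvastatin 4, at 11.9 CPM, lay far from the other 3 atorvastatin libraries, which had 4.06 to 4.81 CPM. It was 1 of 27 sets of 4 libraries checked, and chance marks about 1 in 20. Atorvastatin 4 was not among the libraries that stood apart. Without it the log2 fold change of Cd36 for atorvastatin against control was -1.08, against -0.56 with it. Without control 4, the highest control at 17.0 CPM, it was -0.18.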

How the results depend on the processing

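No value of the 9 genes passed the test in any of the 3 comparisons under 21 alternatives, 567 values in all, and their lowest adjusted p was 0.181. Of these, 63 values in 15 of 27 results changed sign, and the cause was not tested. Counts, as low as 6 for Cd36 in control 3, limit what can be seen.

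Table-wide calls were not stable. Promoters called for PCN against control numbered 268 with voom and sample weights, 6 without atorvastatin 3 and control 3, and 124 when those 2 were left out with a replicate block. For atorvastatin against control they numbered 171, 4 and 57, and 1 with DESeq2. Enhancer regions called were 20 for PCN against control and 4 for atorvastatin against control in the last of these fits, and 8 for atorvastatin against control with voom. The block with all 12 libraries called 0 promoters (2290, 1017 and 257 at an unadjusted p under 0.05) and 0 regions, and changed no call of the 9 genes. Correlations of same-numbered libraries were all above 0.1 only for promoters of atorvastatin and control, and pairing by number was not shown there either.

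With library totals the median of all promoters for PCN against control was -0.10, against 0.01 with TMM. With loess offsets that of all regions was -0.13, against 0.17, and regions of the 9 genes above 0 were 105 of 218 (48.2%). With no filter they were 256, 231 and 221 of 355 in the 3 comparisons. Within 20 kb they were 133 of 181 for PCN against control.

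Signs that changed are given by comparison, as log2 fold changes. For PCN against control Cd36 was 0.22 with loess offsets and 0.024 with the block, and Lpl was 0.21 with loess offsets. Plin2 was -0.032 with library totals, -0.11 with loess offsets and -0.038 without the 2 libraries and with the block. The NM_007643 row of Cd36 was -0.27 in this last fit, and the NM_001159558 row was -0.24 with voom.

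For atorvastatin against control Pparg was -0.011 with DESeq2's size factors, -0.074 with library totals, -0.014 with loess offsets and -0.012 with DESeq2. Plin2 was 0.018 with voom. Cidec was -0.081 without the 2 libraries and with the block. Mogat1 was -0.0090 with DESeq2's size factors, -0.072 with library totals, -0.0097 with DESeq2, -0.019 with the block and -0.082 with the block and without the 2 libraries. Lpl was -0.60 with voom and -0.18 in the fit named for Cidec, and the NM_007643 row of Cd36 was -0.25 and -0.40 in these fits. The NM_001159558 row was 0.00044 with DESeq2's size factors, 0.20 with loess offsets, 0.00085 with DESeq2 and 0.18 with the block.

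For PCN against atorvastatin, without the 2 libraries and with the block, Plin2 was -0.017, Cidea 0.071 and Gpihbp1 0.071. With voom Cidec was -0.052, Vldlr 0.024, its NM_001347441 row 0.071, Lpl 0.20 and Gpihbp1 0.25. With loess offsets Lpl was 0.086 and the NM_001347441 row 0.054. The NM_007643 row of Cd36 was -0.049 with library totals.

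Leaving out 1 library at a time, or both atorvastatin 3 and control 3, gave these ranges where a sign changed. For PCN against control they were -0.39 to 0.29 for Cd36, -0.087 to 0.64 and -0.13 to 0.73 for its NM_007643 and NM_001159558 rows, -0.34 to 0.084 for Lpl and -0.086 to 0.28 for Plin2. For atorvastatin against control they were -0.30 to 0.58 and -0.71 to 0.45 for those Cd36 rows, -0.47 to 0.21 for Cidea, -0.30 to 0.27 for Lpl, -0.22 to 0.15 for Mogat1, -0.21 to 0.16 for Plin2, -0.16 to 0.32 for Pparg and -0.76 to 0.032 for Nr1i2. For PCN against atorvastatin they were -0.22 to 0.23 for the NM_007643 row of Cd36, -0.026 to 0.26 for Cidec, -0.0086 to 0.31 for Dgat2, -0.62 to 0.091 for Gpihbp1, -0.41 to 0.032 for Lpl, -0.058 to 0.27 for Plin2, -0.22 to 0.060 for Vldlr and -0.17 to 0.12 for its NM_001347441 row.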
